A study of Oryctolagus cuniculus with 8 samples.

Results

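The epidermal growth factor (EGF) receptors and their ligands were followed in side population (SP) and non-side population (NSP) cells of the rabbit limbus, the epithelial rim between cornea and conjunctiva. Members were taken by name: the receptor genes EGFR, ERBB2 and ERBB3 and the ligand genes HBEGF, TGFA, AREG, EPGN, EREG and BTC, 9 genes of 20922 entries in the count table. Each name matched 1 entry, and all 9 passed the filter on low counts. SP cells, by definition those that pump out the Hoechst dye used to isolate them and stay dim, came as 4 samples, and NSP cells, which keep the dye, as 4 samples. All samples were limbal epithelial isolates taken from rabbits of the New Zealand white strain, with no treatment named, and total RNA was read on an Ion Proton instrument. Body weight is labelled as a range whose upper end steps up evenly from each sample to the next, so it is not read as a measured weight here. Age is not labelled, nor whether each sample is a different animal. The p-values below therefore rest on the variation among these libraries, and that variation may be technical. Library columns name the group but not the sample, so libraries are numbered 1 to 4 within each group in column order.

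EGF receptors are cell surface tyrosine kinases that form dimers once a ligand is bound and signal through the RAS-MAPK and PI3K-AKT cascades. EGFR binds the EGF-type ligands, ERBB2 has no known ligand and serves as dimer partner, and ERBB3 binds neuregulins and has little kinase activity of its own. The ligands are made as membrane precursors that proteases cut loose. In corneal epithelium, EGFR and its ligand HB-EGF are known for driving cell migration and proliferation when a wound closes.

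Levels are given as CPM, the exon reads of a gene scaled to library totals adjusted by TMM factors (trimmed mean of M-values), and differences as log2 fold changes of SP over NSP. Depth ranged from 15553295 to 18931836 exon reads in SP libraries and from 20445565 to 23529101 in NSP libraries. The label of limbal epithelium held for NSP but only in part for SP: 7 of 7 epithelial markers (KRT3, KRT12, KRT15, TP63, PAX6, CDH1, EPCAM) had reads in both groups, yet they summed to between 529.9 and 5913 CPM in SP libraries, against 17788 to 35434 CPM in NSP libraries. Every tested marker of the other cell types below was called higher in SP except the myeloid CD68. Endothelial markers (7 of 7 with reads in both groups) summed to between 1854 and 16391 CPM in SP and 0.532 to 2.02 CPM in NSP. Lymphocyte markers (4 of 7 had an entry) summed to between 1552 and 6508 CPM in SP and 1.06 to 2.56 CPM in NSP, where CD8B had no read. CCL5 made up most of this SP sum. Melanocyte markers (5 of 6 with an entry) summed to between 1945 and 12212 CPM in SP and 149 to 294.6 CPM in NSP, and myeloid markers (6 of 6) to between 1007 and 2361 CPM in SP and 29.3 to 48.1 CPM in NSP. Most of the myeloid sum in SP was LAPTM5 (mean of 1182.5 CPM), while SPI1, AIF1, CSF1R and CD68 had means of 17.8 to 37.8 CPM. Stromal markers (6 of 7 with an entry) summed to between 212.8 and 384.3 CPM in SP and 36.8 to 53.8 CPM in NSP, where COL3A1 and LUM had no read. In such bulk samples, fewer cells of a type and less RNA per cell cannot be told apart. The part of these markers in each result below was not tested.

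Of the 9 member genes, 5 were lower in SP, 4 did not pass the test and 0 were higher. EGFR, ERBB2, HBEGF, AREG and EPGN fell, while ERBB3, TGFA, EREG and BTC did not pass. A gene was called at a Benjamini-Hochberg adjusted p under 0.05 over all 10012 tested genes in a limma-voom fit of SP against NSP. At an unadjusted p under 0.05 there were 6 lower members and again 0 higher ones, and limma-trend and voom with quality weights each called 5 lower and 0 higher. Among all tested genes 30.7% were called, 13.0% lower in SP and 17.7% higher. The median log2 fold change was -1.93 over the 9 members and 0.12 over all tested genes. With median-ratio scaling the median over all genes was 0.00, a shift of the whole scale that moved each of these members further down without changing a call. Levels in SP and NSP did not overlap for 5 of 9 members, which was also the case for 32.8% of all tested genes.

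**Figure D1:**
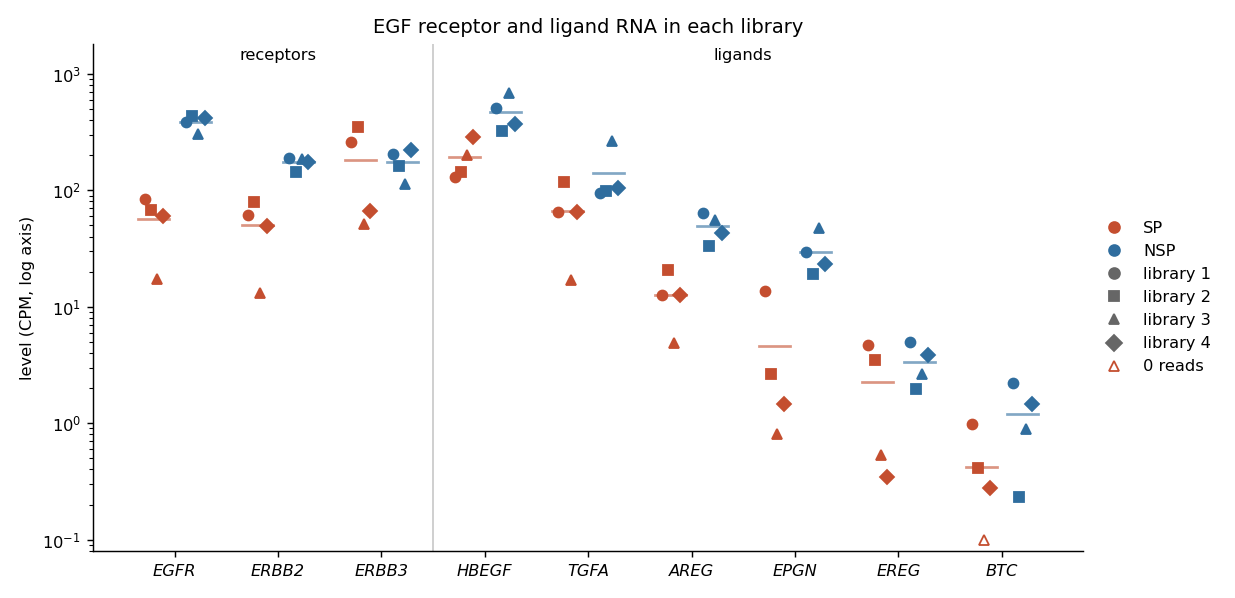
Levels of the 9 members in each library, in CPM on a log axis, with SP in red left of NSP in blue. Symbols mark libraries 1 to 4, bars the group means, and the open symbol a library with 0 reads, drawn at the foot of the axis. EGFR, ERBB2, HBEGF, AREG and EPGN separate without overlap, while the SP libraries of ERBB3 lie on both sides of the NSP range.

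Among the receptors, EGFR had the most negative fold change. EGFR stood at 83.2, 67.1, 17.2 and 60.1 CPM in SP libraries 1 to 4, against 384, 430.5, 304.8 and 417.5 CPM in NSP libraries 1 to 4. Every SP library lay below every NSP library, and SP library 3 was the lowest by far. The SP mean was 56.9 ± 28.2 CPM and the NSP mean 384.2 ± 56.5 CPM (SD, n = 4 each). The log2 fold change was -2.96 ± 0.43 (SE, limma-voom adjusted p = 0.000779), with a 95% interval from -3.91 to -2.02.

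ERBB2, the ligand-less dimer partner, was lower in SP as well. Its levels were 61.5, 78.5, 13.2 and 49.7 CPM in SP and 189.5, 143, 186.3 and 175.9 CPM in NSP. The groups did not overlap, and SP library 3 was again the lowest. The log2 fold change was -2.03 ± 0.46 (adjusted p = 0.00774, interval from -3.05 to -1.02).

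ERBB3, the neuregulin receptor, was not called. It stood at 258.7, 348.4, 51.2 and 65.8 CPM in SP and at 206.1, 161.6, 113.1 and 220.4 CPM in NSP. SP libraries 1 and 2 lay above every NSP library, and SP libraries 3 and 4 lay below every NSP library. The SP mean was 181 ± 146.3 CPM and the NSP mean 175.3 ± 48.5 CPM (SD, n = 4 each), and the log2 fold change was -0.35 ± 0.58 (adjusted p = 0.676). Its 95% interval ran from -1.63 to 0.92. Without SP library 3 the value was 0.10. Melanocytes also express ERBB3, and the melanocyte markers summed to 12212, 1945, 7431 and 2458 CPM in SP libraries 1 to 4. The part of melanocytes in the ERBB3 levels was not tested.

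ERBB4, the remaining receptor of the family and no member of the set, was low in both groups. It had 67, 67, 0 and 16 reads in SP and 11, 43, 52 and 27 reads in NSP (log2 fold change -0.79 ± 1.38, adjusted p = 0.70, or 0.91 without SP library 3). The 0 reads of SP library 3 allow up to 3 reads, or 0.161 CPM. This floor covers counting error only, while the 95% intervals of fold changes rest on the variation among libraries.

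**Figure D2:**
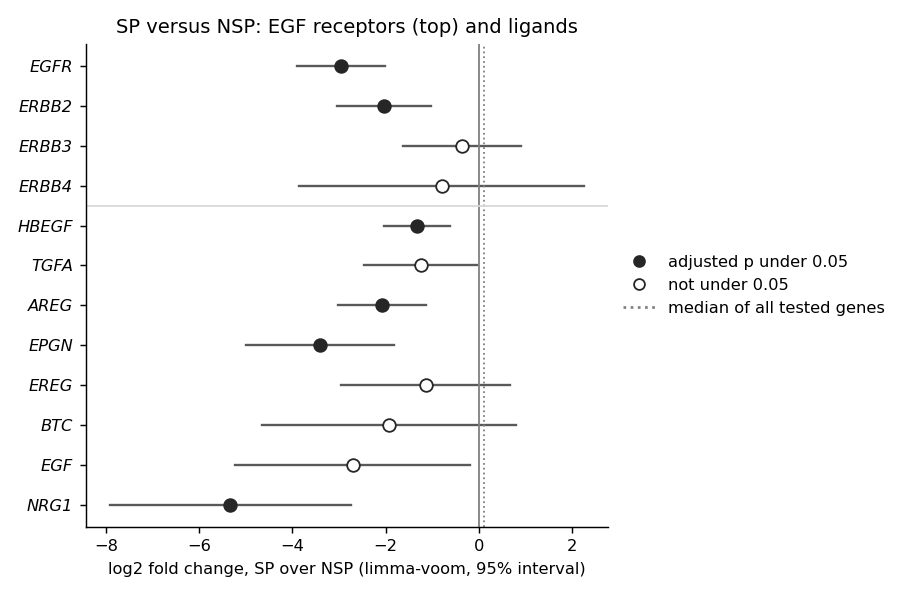
Log2 fold changes of SP over NSP from limma-voom for the receptors (above the grey line) and the ligands, including ERBB4, EGF and NRG1, which are outside the 9 members. Filled points passed an adjusted p of 0.05, bars are 95% intervals, and the dotted line is the median of all tested genes at 0.12. EGFR, ERBB2, HBEGF, AREG, EPGN and NRG1 are filled, and ERBB3 sits at -0.35.

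HBEGF, the heparin-binding ligand, had the most RNA of the ligands and was lower in SP. Its levels were 130.7, 144.2, 200 and 288.5 CPM in SP and 510.1, 325.2, 688.7 and 368.4 CPM in NSP. The groups did not overlap, although SP library 4 came close to NSP library 2. The log2 fold change was -1.32 ± 0.32 (limma-voom adjusted p = 0.0113, interval from -2.03 to -0.61). Within SP, HBEGF took another order than the other members: library 1 was lowest and library 4 highest. The endothelial markers had the same order within SP, with sums of 1854, 5358, 6754 and 16391 CPM in SP libraries 1 to 4. In NSP, where HBEGF was higher, the endothelial markers summed to 0.532 to 2.02 CPM. The part of these markers in the HBEGF levels was not tested.

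AREG, which encodes amphiregulin, an EGFR-specific ligand, was at 12.5, 20.6, 4.84 and 12.6 CPM in SP and at 64.3, 32.9, 55.5 and 43.1 CPM in NSP. All SP libraries were below all NSP libraries, with a log2 fold change of -2.08 ± 0.43 (adjusted p = 0.00482).

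EPGN, the gene of epigen, a low-affinity EGFR ligand of epithelia, had the largest fold change of the 9. It was at 13.5, 2.64, 0.807 and 1.46 CPM in SP and at 29.4, 19.1, 47.3 and 23.1 CPM in NSP. The groups did not overlap, but SP library 1 stood well above the other SP libraries. The log2 fold change was -3.40 ± 0.72 (adjusted p = 0.00566), and it was -4.22 without SP library 1 and -2.82 without SP library 3.

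TGFA, the classic transforming growth factor alpha that binds EGFR, did not pass. It was at 65.4, 117.1, 16.8 and 64.6 CPM in SP and at 95.2, 99.3, 265.9 and 104.2 CPM in NSP. SP library 2 lay within the NSP range, and NSP library 3 stood far above its group. The log2 fold change was -1.24 ± 0.55 (unadjusted p = 0.0455, adjusted p = 0.112, interval from -2.46 to -0.03).

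EREG, which encodes epiregulin, a ligand of EGFR and ERBB4, was low in both groups, at 4.67, 3.51, 0.538 and 0.348 CPM in SP and 4.95, 1.98, 2.64 and 3.87 CPM in NSP. SP libraries 1 and 2 lay within the NSP range, and SP libraries 3 and 4, with 10 and 5 reads, lay below it. The log2 fold change was -1.14 ± 0.82 (adjusted p = 0.319, interval from -2.95 to 0.67).

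BTC, the betacellulin gene, had the fewest reads, with 18, 8, 0 and 4 reads in SP and 49, 5, 18 and 30 reads in NSP. The groups overlapped, and the log2 fold change of -1.93 ± 1.23 was not called (adjusted p = 0.263, interval from -4.66 to 0.80). Without SP library 3, which has no read, the value was -0.83.

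BTC, AREG, EREG and EPGN stand next to each other in the RefSeq gene order of the rabbit assembly mOryCun1.1, with 0 other protein-coding genes between neighbours. Of these 4 neighbouring genes, AREG and EPGN were called lower in SP, and EREG and BTC, both with few reads, were not. Whether their fold changes differ from each other was not tested. The AREG to EPGN ratio, per kilobase of exon, was 0.814 in SP library 1 and 5.26 to 7.56 in SP libraries 2 to 4, against 1.03 to 1.92 in NSP libraries.

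The authors' deposited table holds its own test of the same reads, headed EDGE, with fold changes given as NSP over SP on unscaled means. In the authors' deposited table the NSP over SP fold was 8.13 for EGFR, 4.07 for ERBB2, 3.05 for HBEGF, 4.61 for AREG and 7.44 for EPGN. The corrected p there was 4.03e-08 for EGFR, 0.000936 for ERBB2, 0.0061 for HBEGF, 0.000337 for AREG and 0.00258 for EPGN. In the authors' deposited table TGFA, BTC, EREG and ERBB3 had corrected p of 0.12, 0.48, 1 and 1, and 13.4% of all 20922 entries were under 0.05.

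Levels of different genes were set beside each other per kilobase of exon, as RPKM, the CPM divided by exon length in kilobases, computed from the exon reads and the deposited exon lengths. In SP the order of mean RPKM was HBEGF (82.4), ERBB3 (30.6), TGFA (15.2), ERBB2 (11.2), EGFR (7.59), AREG (5.82), EPGN (2.41), EREG (2.28) and BTC (0.346). In NSP it was HBEGF (204.4), EGFR (51.2), ERBB2 (38.3), TGFA (32.5), ERBB3 (29.6), AREG (22.5), EPGN (15.6), EREG (3.37) and BTC (0.991). In SP the ranges of every gene and the next in this order overlapped. In NSP, HBEGF stood clear of EGFR, EPGN clear of EREG and EREG clear of BTC, while the ranges from EGFR down to EPGN overlapped from 1 gene to the next.

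The order of the receptors differed between the groups. ERBB3 was the most abundant receptor RNA per kilobase in SP libraries 1 to 4, at 63.3, 68.7, 62.4 and 36.7% of the summed RPKM of the 4 receptors, against 27.2, 23.4, 18.9 and 28.2% in NSP libraries 1 to 4. EGFR held 16.1, 10.4, 16.5 and 26.4% in SP and 40, 49.2, 40.1 and 42.2% in NSP. Shares of both genes did not overlap between groups. ERBB2 held 19.7 to 36.2% in SP and 27.1 to 40.6% in NSP, which overlapped. In SP library 4, ERBB3 (36.7%) and ERBB2 (36.2%) were nearly level. All receptors together summed to between 13.9 RPKM in SP library 3 and 85.8 in SP library 2, against 101.3 to 132 RPKM in NSP libraries.

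**Figure D3:**
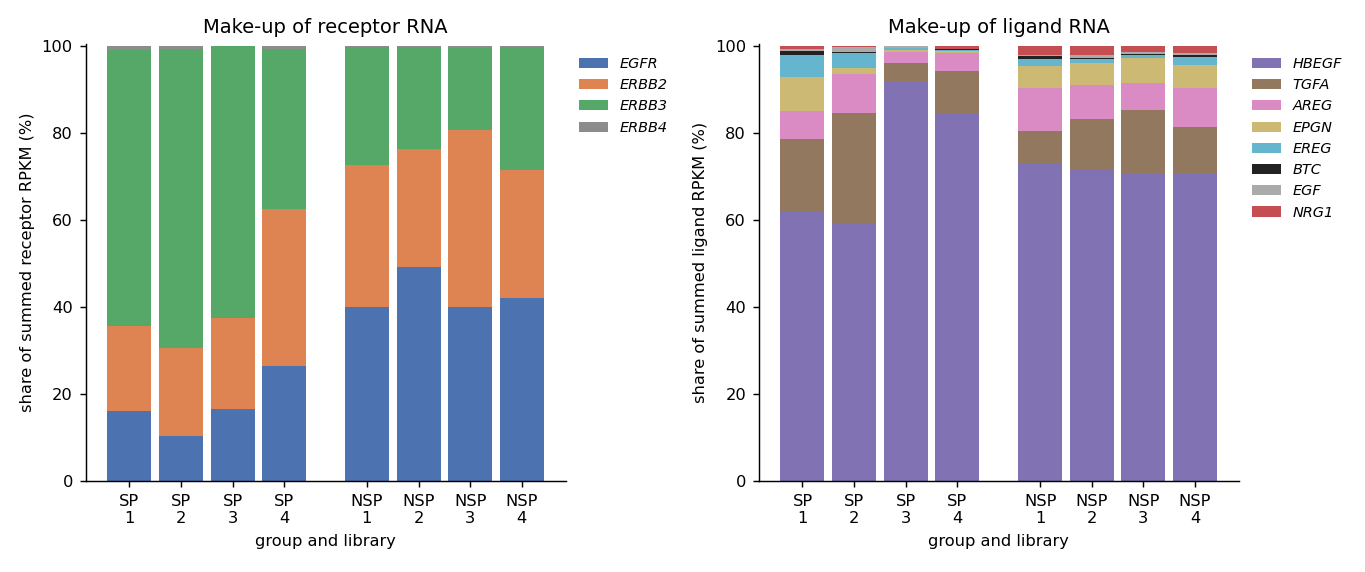
Share of each gene in the summed RPKM of 4 receptors (left) and of 8 ligands (right) in each library, in percent, with SP libraries left of NSP libraries. ERBB3 takes 36.7 to 68.7% of receptor RNA in SP and 18.9 to 28.2% in NSP, and HBEGF takes the most ligand RNA in every library.

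The share of HBEGF in the ligand RNA varied little across NSP libraries and widely across SP libraries. It held 62.1, 59.1, 92.1 and 84.3% of the summed ligand RPKM in SP libraries 1 to 4, and 73.2, 71.6, 70.8 and 70.8% in NSP libraries 1 to 4. TGFA held 16.6, 25.6, 4.13 and 10.1% in SP and between 7.29 and 14.6% in NSP. EPGN held between 0.451 and 7.79% in SP and between 5.10 and 5.91% in NSP. SP libraries 1 and 2 had less HBEGF and more TGFA in their ligand RNA than SP libraries 3 and 4.

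Ratios within a library do not depend on how libraries are scaled. The ERBB3 to EGFR ratio of RPKM was 3.94, 6.58, 3.78 and 1.39 in SP, against 0.68, 0.476, 0.47 and 0.669 in NSP. Each SP library had more ERBB3 than EGFR RNA per kilobase, and each NSP library had less. The ERBB2 to EGFR ratio was between 1.22 and 1.94 in SP and between 0.55 and 1.01 in NSP, also without overlap.

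The receptors were also set against each of the 7 epithelial markers, which did not fall alike: CDH1, the epithelial cadherin gene, had the smallest log2 fold change at -1.66, and KRT15, a keratin of limbal basal cells, the largest at -6.41. For EGFR the direction depended on the marker. The EGFR to CDH1 ratio was 0.0831, 0.0417, 0.0564 and 0.0833 in SP and 0.132, 0.17, 0.181 and 0.148 in NSP, lower in every SP library. Over the adhesion gene EPCAM it was lower as well, at 0.0415 to 0.0778 in SP and 0.0856 to 0.114 in NSP. The EGFR to TP63 ratio went the other way, at 2.34, 23.8, 7.87 and 1.78 in SP and 1.45, 1.18, 0.557 and 1.14 in NSP, with TP63 the gene of the transcription factor p63 of basal epithelial cells. Over KRT15 it was higher in SP too, at 0.00678 to 0.34 in SP and 0.0056 to 0.0061 in NSP, and over KRT3, KRT12 and PAX6 the groups overlapped. EGFR was thus lower over 2 markers, higher over 2 and overlapping over 3.

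ERBB3 was higher in every SP library than in every NSP library over 7 of 7 markers. All 7 markers were themselves called lower in SP, so a gene that fell less tends to a higher ratio over each of them. The share of all tested genes with the same pattern was not counted, so the 7 of 7 is not particular to ERBB3. The ERBB3 to CDH1 ratio was 0.327, 0.274, 0.213 and 0.116 in SP and between 0.0809 and 0.099 in NSP, and over TP63 it was between 2.48 and 156.7 in SP and between 0.262 and 0.987 in NSP. ERBB2 was higher over KRT15, TP63 and PAX6 and overlapped over the other 4, CDH1 and EPCAM among them. HBEGF was higher over KRT15 and TP63 and overlapped over the other 5. All ratios and shares were chosen after the values were seen, are a description and carry no test.

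**Figure D4:**
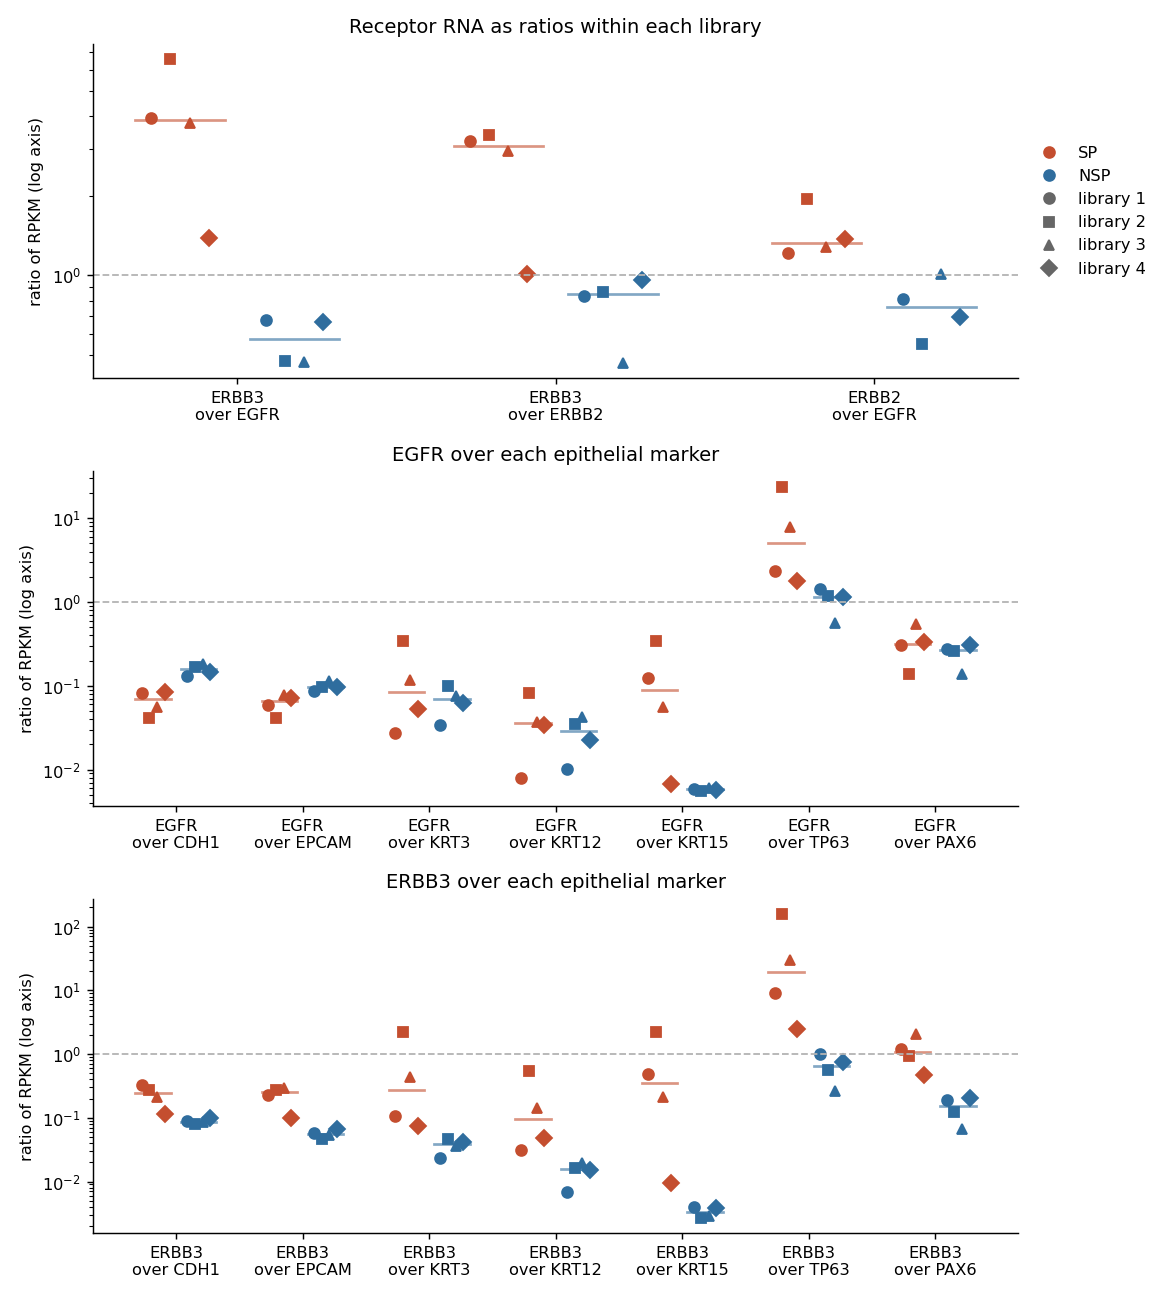
Ratios of RPKM within each library on log axes, with SP in red left of NSP in blue, symbols for libraries 1 to 4 and bars for group medians. The top panel sets the receptors against each other, the middle one EGFR and the bottom one ERBB3 against each epithelial marker. In SP, EGFR is lower over CDH1 and EPCAM, higher over KRT15 and TP63 and overlapping over KRT3, KRT12 and PAX6, while ERBB3 is higher over each of the 7 markers. All 7 markers were themselves called lower in SP.

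Other genes of the pathway were read from 7 lists grouped by role, with 66 of 100 listed genes tested, 33 without an entry of that name and NRG2 too low to test. Of the 66, 13 rose and 11 fell in SP (36.4% called, beside 30.7% of all tested genes), with a median log2 fold change of 0.10. The 13 became 8 without SP library 3, NSP library 1 or NSP library 2, and 7 without NSP library 4. NRG1, the neuregulin gene whose product binds ERBB3, fell, with 49, 3, 0 and 70 reads in SP and 561, 362, 437 and 283 reads in NSP (log2 fold change -5.34 ± 1.17, adjusted p = 0.0067). Without SP library 3, which has no read, the value was -3.93, and without SP library 1 or 4 it was -6.20 or -6.52. The founding ligand gene EGF had 40, 141, 40 and 0 reads in SP and 116, 177, 269 and 137 in NSP and was not called (-2.71 ± 1.14, adjusted p = 0.097). Its value was -1.41 without SP library 4, which has no read, -1.37 with quality weights and -3.66 without SP library 2.

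Of 3 tested genes for ligand shedding, 0 were called by limma-voom or limma-trend, while 2 were higher at an unadjusted p under 0.05 and 1 was called higher with quality weights. The 2 were ADAM10, also the 1 called with quality weights, and TIMP3 (0.88), the gene of a metalloproteinase inhibitor and not of a protease. RHBDL2, the remaining gene, was at -1.15 and not called. ADAM10, the protease that sheds EGF and betacellulin precursors, was at 139.1, 83, 105.7 and 59.5 CPM in SP and 42, 41.8, 79.6 and 43.8 CPM in NSP (0.90 ± 0.32, adjusted p = 0.0543). It passed without SP library 4 (adjusted p = 0.0295) and without NSP library 3 (0.0286). ADAM17, the main sheddase of several other ligands, was not analysed here.

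Among 12 tested receptor inhibitors and removal genes, 2 rose and 1 fell (25.0% called, beside 30.7% of all tested genes). Their median log2 fold change was -0.09. LRIG1, a membrane protein that promotes breakdown of ERBB receptors and marks quiescent epithelial stem cells, fell (-1.23 ± 0.37, adjusted p = 0.0298). It stood at 35.7, 38.4, 19.1 and 39.6 CPM in SP and 87.2, 70.4, 41.8 and 119.5 CPM in NSP, without overlap. SOCS5, a suppressor of cytokine signalling that also targets EGFR, rose (1.76 ± 0.42, adjusted p = 0.0107), as did CBLB, a ubiquitin ligase active in T cells and on EGFR (1.08 ± 0.32, adjusted p = 0.0259). The call of LRIG1 ended without SP library 3 or NSP library 1, 2 or 4 (adjusted p up to 0.0833), and that of CBLB without SP library 3 or NSP library 1, 3 or 4 (up to 0.113). ERRFI1, the feedback inhibitor of the EGFR kinase, was not called, with 619.8, 1034, 1347 and 2368 CPM in SP and 895.7, 1379, 2488 and 1510 CPM in NSP (-0.29 ± 0.42, adjusted p = 0.636).

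Of 11 tested adaptors, 3 rose and 0 fell (27.3% called, beside 30.7% of all tested genes). At an unadjusted p under 0.05, by limma-trend or with quality weights, 0 were lower. GAB2, a docking protein much used in blood cells, rose to 23.2 to 38.8 CPM in SP, against 0.0923 to 0.99 CPM in NSP (6.21 ± 0.74, adjusted p = 0.000344, and 5.61 without NSP library 2). The RAS exchange factor SOS1 (1.10) and the endocytic adaptor EPS15 (1.14) rose too. The call of SOS1 was lost without SP library 1 or NSP library 2, 3 or 4 (adjusted p up to 0.0782), and that of EPS15 without any library but SP library 4 (up to 0.103).

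In the RAS-MAPK branch, 2 of 14 tested genes rose and 3 fell (35.7% called, beside 30.7% of all tested genes). Their median was 0.21. Feedback inhibitors moved both ways. SPRY4 rose, at 38.9, 109.5, 90.6 and 239.3 CPM in SP and 1.5 to 3.65 CPM in NSP (5.38 ± 0.86, adjusted p = 0.00136). SP library 4 also had the highest sum of endothelial markers and SP library 1 the lowest. Between them the order differed: SPRY4 was higher in SP library 2 than in SP library 3, while the sums were 5358 and 6754 CPM. The part of these markers in the SPRY4 levels was not tested. SPRY2 (-1.34, adjusted p = 0.0169, and up to 0.0512 without SP library 2 or NSP library 2) and SPRED2 (-1.03, adjusted p = 0.00365) fell, together with the scaffold gene KSR1 (-1.70, adjusted p = 0.00182). SPRED1 (0.95, adjusted p = 0.0471) lost its call with median-ratio scaling, without the filter, with quality weights and without any library but SP library 2, with adjusted p up to 0.157.

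In the PI3K-AKT and STAT branch, 6 of 12 tested genes rose and 1 fell (58.3% called), with a median of 0.93. Among all tested genes 30.7% were called, 17.7% higher in SP. The catalytic subunit genes PIK3CG and PIK3CD, which leukocytes use, led the rises. In SP libraries 1 to 4, PIK3CG was at 88.3, 59.3, 74.7 and 79.8 CPM and PIK3CD at 97.6, 144.2, 190.4 and 88.2 CPM. Lymphocyte markers summed to 1552, 4052, 6508 and 2776 CPM in the same libraries, and their part in these rises was not tested. Most of that sum is CCL5, with an SP mean of 3381 CPM, beside 178.1 for CD247, 130.2 for TBX21 and 33.1 for CD8B. PIK3CG was at 59.3 to 88.3 CPM in SP, while the NSP libraries held 4 reads, all in library 1 (10.83 ± 0.89, adjusted p = 8.86e-05, and 11.46 without NSP library 1, a fold change set partly by the offset added to counts of 0). PIK3CD was at 88.2 to 190.4 CPM in SP and 1.70 to 8.77 CPM in NSP (4.63 ± 0.52, adjusted p = 0.000276). STAT5B (1.97), a transcription factor gene of the same branch, rose as well. STAT3, a transcription factor that EGFR activates, fell (-1.16 ± 0.33, adjusted p = 0.0219) and lost its call without SP library 2 or 3 or NSP library 2, 3 or 4, with adjusted p up to 0.0575.

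Transcripts known to be induced by EGF receptor signalling fell or did not pass. Of 11 tested, 5 fell and 0 rose (45.5% called), with a median of -1.41. Among all tested genes 30.7% were called, 13.0% lower in SP, with a median of 0.12. At an unadjusted p under 0.05, 5 were lower and 1 higher, and quality weights called 1 higher. FOSL1, an AP-1 subunit, was at 29.5, 33, 23 and 81 CPM in SP and 384.1, 382, 488.3 and 381.6 CPM in NSP (-3.50 ± 0.34, adjusted p = 0.000164). VEGFA, the vessel growth factor gene, was at 15.3 to 44.5 CPM in SP and 72.9 to 167.1 CPM in NSP (-2.40 ± 0.39, adjusted p = 0.00142). The ETS factor gene ETV5 (-1.41, adjusted p = 0.00324), EGR1 (-1.60, adjusted p = 0.00742) and PHLDA1 (-1.42, adjusted p = 0.00714) made up the rest of the falls. The epithelial markers had a median log2 fold change of -3.30 in the same fit.

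**Figure D5:**
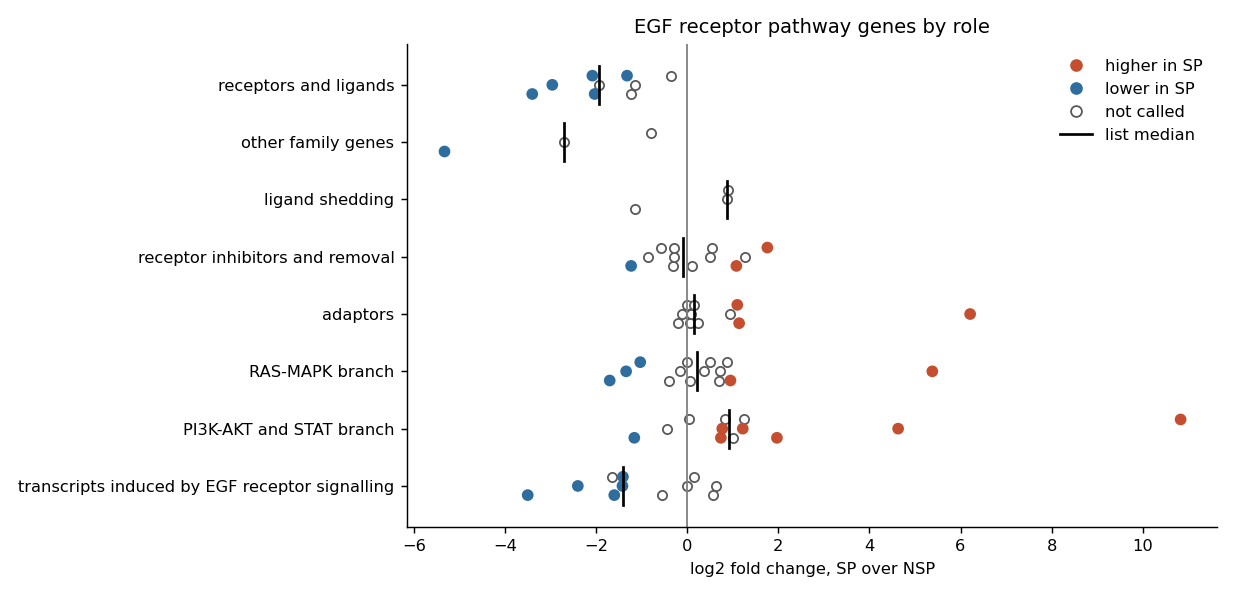
Log2 fold changes of SP over NSP for every tested gene of the 9 members and of the 7 other lists, 1 row per list. Red points rose and blue points fell at an adjusted p under 0.05, white points did not pass, and black bars are list medians. Members lie at or below -0.35, and the 5 called transcripts induced by receptor signalling are all blue, while PIK3CG lies at 10.83.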

How the data were processed

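The deposited data are 1 text table, with 20922 entries spread over 6 stacked blocks and 163 fields that are each 8 characters wide. It was read by character position, since neighbouring fields touch. Field headers are cut at 8 characters and show the group, not the measure. The fields used hold whole numbers and were taken as unscaled counts on exons. They gave back the group means that the authors deposited to within 0.05. Exon length is a field that repeats unchanged in every library. Fold changes and p-values headed EDGE are the authors', per the file headers. Of 152 fields that belong to single libraries, 143 in all were not used. The sources used here name no aligner, genome build or annotation, so no coordinates are printed. Names are cut at 8 characters too. In all, 10916 names were usable. The other 10006 entries (locus numbers, and names cut or repeated) held 10.1% of reads and stayed in totals and tests as genes without a printed name. No sequence is printed.

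TMM factors (trims of 30% and 5%) were computed on the counts. The filter asked for 15 reads in all and for 0.508 CPM, which is 10 reads at the median depth, in at least 4 libraries. The 10012 genes kept were tested with limma-voom (limma 3.58.1, R 4.3.3; offset 0.5; group only), two-sided, at an adjusted p of 0.05. A quasi-likelihood count test was not run, because the tools for it were not available here. Tables were read with pandas 2.3.3 and NumPy 2.4.6 under Python 3.11.15, and plots drawn with matplotlib 3.10.9.

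Members and lists were chosen with earlier results of these data known. Named genes are all members, up to 4 called genes per list and direction by smallest p, 7 fixed genes (ERBB4, EGF, NRG1, ADAM17, ADAM10, ERRFI1, LRIG1), and the 3 nearest profiles of each member. EGR1 is named as the remaining call of its list, and TIMP3 and RHBDL2 as the remaining tested genes for ligand shedding. A gene that this rule names is not reported here. Alternatives were median-ratio factors, no filter beyond 1 read, 10 reads in 4 libraries (which kept slightly more genes than the main filter), limma-trend, voom with quality weights, and each library left out.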

Additional observations from a re-analysis of the deposited data

Results flagged for a closer look

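In 38 groups of 4 libraries (levels of the members, ERBB4, EGF and NRG1, and ratios between members), 2 values stood far from the rest of their group by Dixon's ratio at its 95% critical value, where chance gives about 1 in 20. TGFA was at 265.9 CPM in NSP library 3, while the other NSP libraries were between 95.2 and 104.2 CPM. EPGN was at 13.5 CPM in SP library 1, while the other SP libraries were between 0.807 and 2.64 CPM. In NSP library 3 the epithelial markers had the lowest sum of their group, and in SP library 1 the highest of theirs. In NSP this sum rests mostly on KRT15 and KRT12 (means of 15206 and 7019 CPM), and single markers did not all follow it. TP63 and PAX6 were highest, not lowest, in NSP library 3. In SP library 1, KRT3, KRT12 and TP63 were highest, while KRT15, PAX6, CDH1 and EPCAM were not. The part of the epithelial markers in the TGFA and EPGN values was not tested.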

How the results depend on the processing

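No paired analysis was possible because the columns carry no replicate numbers. The planned count of reads unique to a gene was not run, since only 1 field per library was used. Over the single libraries left out, the members called lower in SP numbered 5 to 5 and those called higher 0 to 0. EGFR ranged from -3.23 to -2.45, ERBB2 from -2.35 to -1.46, AREG from -2.40 to -1.66, HBEGF from -1.71 to -1.12 and EPGN from -4.22 to -2.82. ERBB3 ranged from -0.82 to 0.10, turning positive without SP library 3, TGFA from -1.64 to -0.68, EREG from -1.73 to -0.67 and BTC from -2.63 to -0.83, with none of these called. ERBB4 ranged from -1.55 to 0.91, positive without SP library 3, and ERRFI1 from -0.79 to 0.02, positive without SP library 1. Genes of the 7 other lists called higher in SP ranged from 7 to 18, with 8 without SP library 3 or NSP library 1 or 2, and 7 without NSP library 4, against 13 with all libraries. Those called lower ranged from 8 to 12. Under the 5 other settings all counts and member calls stayed on their side. Of the named genes of other lists, SPRED1 lost its call under 3 of these settings (0.83, 0.94 and 0.71), and ADAM10 gained one with quality weights (1.07), without SP library 4 (0.94) and without NSP library 3 (1.13). The cause was not tested. BTC, EREG and ERBB4 rest on few reads, with 30, 169 and 150 over all SP libraries, and vary widely between libraries. Which of these limits their tests was not tested.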

Other observations

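For each member, the log2 CPM profile over the 8 libraries, centred on its mean, was compared with 8588 other named genes by root mean square difference. This is a description with no test. For the called members a large part of the profile is the difference between SP and NSP. For ERBB3, with a log2 fold change of -0.35, it is mostly the spread within SP, from 51.2 to 348.4 CPM. Nearest to EGFR were SMARCD3 (0.23), SH3RF2 (0.24) and PTPRF (0.26), in log2 units. Nearest to ERBB2 were MAP7 (0.18), TMEM79 and TRIM16 (0.21 each). ERBB3 had no such close neighbour: ILDR1 was nearest at 0.37, followed by F3 (0.38) and ZBED5 (0.39). Nearest to HBEGF were HIVEP3, SGK1 and PDE6D (0.23 each), and to AREG CDRT1 (0.23), CNKSR1 and NCKAP5 (0.25 each). TGFA was nearest to FAM46B (0.32), RHBDL2 (0.35) and PDZK1IP1 (0.37). EPGN was nearest to GDA (0.38), GPR115 (0.54) and RGS5 (0.55), and EREG to DNAH9 (0.40), CDS1 (0.41) and OLFM4 (0.50). BTC, with the fewest reads, had its nearest gene, POF1B, at 0.73.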
